A study of Homo sapiens with 4 samples.

Results

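The SLC16 genes encode the monocarboxylate transporter (MCT) family of plasma membrane proteins, and BSG encodes basigin, a glycoprotein that escorts some of them to the cell surface. Here 8 SLC16 genes and BSG were described in HEK293T cells with reduced FOXP4 RNA (FOXP4 KO) and in control cells. FOXP4 is a forkhead transcription factor. The 9 genes were picked by symbol with the KO and control values of these same libraries already known, so their differences between the groups are a description with no test. All 9 were found among the 15218 genes of the count table, and all 9 passed the filter on low counts that left 14620 tested genes.

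RNA sequencing compared 2 FOXP4 KO libraries with 2 control libraries of HEK293T, a human embryonic kidney line. The labels give the genotype of the first group as FOXP4 knock down and that of the second as Control, while the study's text speaks of CRISPR-Cas9 knockout and its methods of an shRNA virus with puromycin selection. Both KO titles carry the number KO1, which is read here as 1 line, and all cells grew in DMEM with serum. Nothing says that the libraries of a group came from separate cultures, so p-values reflect library-to-library spread alone, and that spread may be technical.

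The libraries held 36393224 to 43057305 counts. FOXP4 had 713 and 886 counts in KO libraries 1 and 2, against 2562 and 2463 counts in control libraries 1 and 2, a log2 fold change (KO minus control) of −1.78 (SE 0.185, edgeR adjusted p = 0.0038, quasi-likelihood fit over all tested genes). The counts do not show FOXP4 protein. All 8 markers of the kidney line were counted. Their summed level was 635 to 713 TPM in KO and 1121 to 1201 TPM in control libraries. The lower sum came through VIM, with 245 and 155 TPM in KO and 724 and 909 TPM in control libraries. NEFM went the other way, with 133 and 140 TPM in KO and 50.6 and 16.9 TPM in control libraries. By the same test VIM and CDH2 were lower and NEFM higher in KO, and the rest were not called. Blood markers summed to 9.37 to 9.97 TPM in KO and 2.42 to 2.55 TPM in control libraries, through HBA1, with HBB at 0 in all 4 libraries. Ovarian markers summed to 6.46 to 6.48 TPM in KO and 1.47 to 2.24 TPM in control libraries, but went both ways, with WFDC2 higher and FOLR1 lower in KO and KRT7 at 0. WFDC2 alone had 6.10 and 6.13 TPM in KO and 0.069 and 0.080 TPM in control libraries, and FOLR1 had 0.120 and 0.285 TPM in KO and 2.03 and 1.24 TPM in control libraries. Fibroblast markers summed to 8.89 to 12.9 TPM in KO and 7.58 to 9.15 TPM in control libraries, and endothelial markers stayed at or below 0.116 TPM. The part of these markers in the results was not tested. Over all tested genes 13.8% were called higher and 12.1% lower at an adjusted p under 0.05, 25.8% in all.

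Carriers of the SLC16 family move small acids and related molecules across the plasma membrane. MCT1 (SLC16A1), MCT2 (SLC16A7), MCT3 (SLC16A8) and MCT4 (SLC16A3) carry lactate, pyruvate and ketone bodies together with a proton, and so couple glycolysis and respiration within and between cells. Other members carry aromatic amino acids, thyroid hormones, carnitine or creatine, and several have no settled substrate. MCT1 and MCT4 need basigin for their place in the membrane, and MCT2 mostly pairs with embigin (EMB).

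The stretch upstream of SLC16A14 is shown because this gene differed most of the 9 between the groups (log2 fold change −5.62). It is given from the RefSeq promoter window (GRCh38.p14, minus strand, chr2:230069000-230069174), 5′ to 3′ toward the gene, and ends 1 base before the most upstream transcript start.
SLC16A14 upstream: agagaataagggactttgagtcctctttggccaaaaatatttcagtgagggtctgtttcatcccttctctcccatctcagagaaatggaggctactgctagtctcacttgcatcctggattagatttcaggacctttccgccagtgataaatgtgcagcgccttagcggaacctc
The window of 300 bases around it (250 before and 50 after the RefSeq start) was searched on both strands for TGTTTAC, a forkhead core, TATTTGT, described for FOXP factors, CACGTG, the E-box of MYC, and ACGTG, the core of the hypoxia response element, which also lies inside CACGTG. None of these letters was found in it.

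RefSeq windows were matched for 6 of the 9 genes (13 windows), and for SLC16A1, SLC16A6 and SLC16A13 none was used. TGTTTAC was in 1 of the 13 windows, that of BSG, and in 3.42% of all 35116 windows. TATTTGT was in 0 of the 13 and in 3.50% of all windows. CACGTG was in 2 of the 13 and in 7.26% of all, and ACGTG in 4 of the 13 and in 21.4% of all. The matches are shown with up to 10 bases on each side, the motif in capitals as it reads on the gene's strand (for BSG GTAAACA, the reverse complement of TGTTTAC, and for SLC16A10 CACGT, that of ACGTG). A match describes these letters and not a bound site.
BSG, plus strand, chr19:571180-571206: ctgagtctcaGTAAACAagtttcccgc
BSG, plus strand, chr19:572393-572418: aacgccgggtCACGTGcgccgccgcc
SLC16A9, minus strand, chr10:59710111-59710136: ttggccagggCACGTGgtgggcggcg
SLC16A10, plus strand, chr6:111087416-111087440: gctgtgggggCACGTcccgctcccg
SLC16A3, plus strand, chr17:82228964-82228988: ccaggcggtgACGTGcgcgggggac
SLC16A3, plus strand, chr17:82228977-82229001: tgcgcgggggACGTGccgcgccagc

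SLC16A14 was nearly absent from the FOXP4 KO cells, at 49.1-fold lower CPM than in control cells. SLC16A7 was 2.93-fold higher and BSG 1.31-fold lower, and the other 6 genes had log2 fold changes of −0.01 to 0.62. In bulk RNA, fewer cells that express a gene and less of its RNA per cell cannot be told apart. By the fit over all genes 1 of the 9 was called higher and 2 lower, a count that the choice of the genes had in view and from which nothing is read. The groups did not overlap in normalized counts for 5 of the 9, against 68.7% of all tested genes. The median log2 fold change of the 9 was 0.08, against 0.01 over all tested genes.

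**Figure D1:**
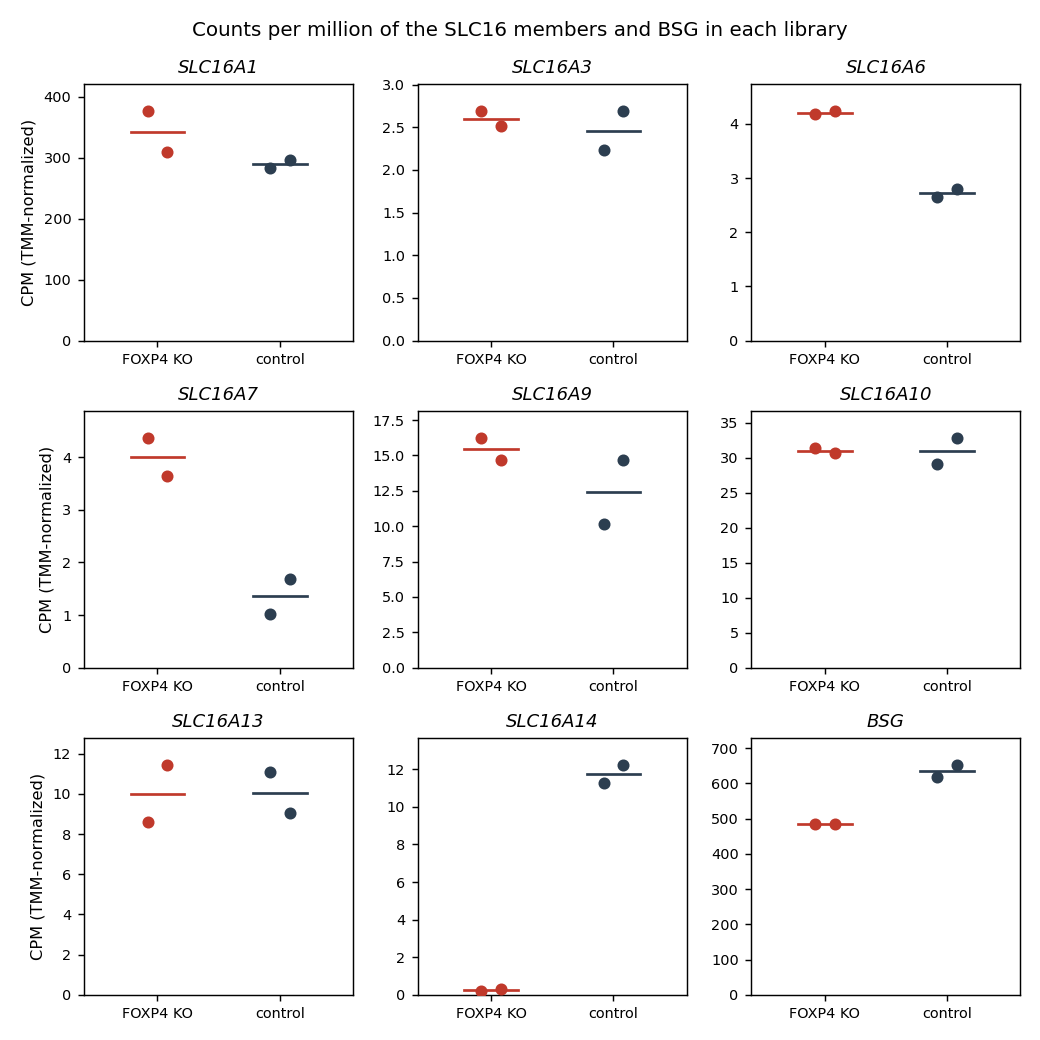
TMM-normalized CPM (vertical axes from 0) of the 9 genes, with 1 point per library, FOXP4 KO left and control right, and a line at each group's mean. SLC16A14 sits at 0.19 and 0.29 CPM in KO and above 11 CPM in control, while the groups of SLC16A3, SLC16A9, SLC16A10 and SLC16A13 overlap.

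SLC16A14 encodes MCT14, a carrier without a settled substrate. The gene (ENSG00000163053) lies on the minus strand of chromosome 2 from 230034974 to 230068999 (GRCh38, GENCODE v29 annotation). It had 8 and 12 counts in KO libraries 1 and 2, against 399 and 527 counts in control libraries 1 and 2. Scaled to the library total by TMM (CPM), this was 0.236 ± 0.072 CPM in KO and 11.7 ± 0.668 CPM in control cells (SD, n = 2 each). The KO values lay far below the control values, and the spread within each group was small beside the gap. The log2 fold change was −5.62 (SE 0.292), and 6 of the 14620 tested genes had a lower one. The count table holds no count of 0, so genes without reads in a library are not in this ranking. It was −5.34 without KO replicate 1 and −5.96 without KO replicate 2, with 8 to 12 KO counts behind the fold.

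The genes around SLC16A14 moved in both directions. Of 9 tested genes within 1 Mb, 3 were higher and 1 lower, with a median log2 fold change of −0.07. Among all tested genes 13.8% were higher and 12.1% lower. The nearest called ones were SP110, a nuclear body protein, with 3.08 (edgeR adjusted p = 0.0018), FBXO36, an F-box protein, with 1.497 (adjusted p = 0.0090), and SP140L, of the SP100 family, with −0.95 (adjusted p = 0.025). No exon of another annotated gene overlaps those of SLC16A14.

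The pattern of SLC16A14 over the 4 libraries was most like that of SNAI2, PUDP, MKRN3, CPNE7 and EMILIN2, by the Euclidean distance of centred log2 CPM. SNAI2, a transcription factor of mesenchymal cells, was nearest, at a distance of 0.679, with 34 and 59 counts in KO and 1331 and 1200 counts in control libraries. PUDP, a pseudouridine phosphatase, was at 0.805 and MKRN3, an imprinted ubiquitin ligase, at 0.875. CPNE7, a copine, was at 0.982, and the matrix protein EMILIN2 at 1.30. With 4 libraries in 2 groups, likeness here means mainly a difference of like size between the groups.

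SLC16A7 encodes MCT2, the proton-linked carrier with high affinity for lactate and pyruvate. The gene (ENSG00000118596) lies on the plus strand of chromosome 12 from 59596067 to 59789855. It had 188 and 152 counts in KO libraries 1 and 2, against 36 and 73 counts in control libraries 1 and 2. This was 4.36 and 3.64 CPM in KO libraries, against 1.02 and 1.69 CPM in control libraries, with an SD of 0.511 CPM in KO and 0.477 CPM in control cells. Both KO libraries were above both control libraries, and the control libraries were further apart in proportion than the KO libraries. The log2 fold change was 1.55 (SE 0.318), 1.22 without control replicate 1 and 1.97 without control replicate 2. The fit over all genes no longer called it without KO replicate 1 (1.42) or without KO replicate 2 (1.68). Its only tested neighbour within 1 Mb had a log2 fold change of −0.08.

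SLC16A1 encodes MCT1, the widely expressed lactate carrier, and was by far the most abundant of the SLC16 genes. The gene (ENSG00000155380) lies on the minus strand of chromosome 1 from 112911847 to 112957013. It had 16217 and 12886 counts in KO libraries 1 and 2, against 10008 and 12787 counts in control libraries 1 and 2. This was 342 ± 47.9 CPM in KO and 289 ± 9.69 CPM in control cells (SD, n = 2 each). KO library 1 stood above the other 3, and KO library 2 was just above the control libraries, with a log2 fold change of 0.24 (SE 0.135), and 0.09 without KO replicate 1. It shares 175 of its 5312 exon bases with the antisense gene SLC16A1-AS1.

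SLC16A3 encodes MCT4, the exporter of lactate in glycolytic cells and a known target of hypoxia signaling. The gene (ENSG00000141526, chromosome 17, plus strand, 82228397 to 82261129) had 116 and 105 counts in KO libraries 1 and 2, against 79 and 116 counts in control libraries 1 and 2. This was 2.69 and 2.51 CPM in KO libraries, against 2.23 and 2.69 CPM in control libraries. Its groups overlapped, and its log2 fold change was 0.08 (SE 0.246). It shares 482 of its 8995 exon bases with CSNK1D on the other strand, and whether the counting used strand is not given in the sources used here.

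SLC16A13 encodes MCT13, which carries lactate in mouse. The gene (ENSG00000174327, chromosome 17, plus strand, 7036075 to 7040121) had 371 and 477 counts in KO libraries 1 and 2, against 393 and 390 counts in control libraries 1 and 2. Its CPM were 8.60 and 11.4 in KO libraries, against 11.1 and 9.03 in control libraries. The groups overlapped, with a log2 fold change of −0.01 (SE 0.219). The 95% interval of this estimate ran from −0.54 to 0.52.

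SLC16A6, SLC16A9 and SLC16A10 had log2 fold changes of 0.00 to 0.62. SLC16A6 encodes MCT7, which exports a ketone body from zebrafish liver, and had 180 and 177 counts in KO libraries 1 and 2, against 94 and 121 counts in control libraries 1 and 2. Both KO libraries, at 4.17 and 4.23 CPM, were above the control libraries, at 2.65 and 2.80 CPM, and the log2 fold change was 0.62 (SE 0.217). The gene (ENSG00000108932) lies on the minus strand of chromosome 17 from 68267026 to 68291267 and shares 144 of 4061 exon bases with ARSG on the other strand.

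SLC16A9 encodes MCT9, linked to the efflux of carnitine. The gene (ENSG00000165449, chromosome 10, minus strand, 59650761 to 59736002) had 699 and 612 counts in KO libraries 1 and 2, against 360 and 635 counts in control libraries 1 and 2. KO libraries had 16.2 and 14.6 CPM, against 10.2 and 14.7 CPM in control libraries, so KO library 2 was just below control library 2, and the low value was that of control library 1. The log2 fold change was 0.31 (SE 0.218), 0.05 without control replicate 1 and 0.59 without control replicate 2. Of 5 tested genes within 1 Mb, 3 were higher and 0 lower, with a median of 0.60, where 13.8% of all tested genes were higher.

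SLC16A10 encodes MCT10, a carrier of aromatic amino acids and thyroid hormones. The gene (ENSG00000112394, chromosome 6, plus strand, 111087503 to 111231194) had 1354 and 1281 counts in KO libraries 1 and 2, against 1032 and 1416 counts in control libraries 1 and 2. Both KO libraries lay between the control libraries in CPM, at 31.0 ± 0.528 in KO and 31.0 ± 2.59 in control cells (SD, n = 2 each). The log2 fold change was 0.00 (SE 0.133, 95% interval −0.32 to 0.32). It shares 177 of its 11237 exon bases with the antisense gene AL360227.1.

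BSG encodes basigin, also named CD147 or EMMPRIN, which besides its role for MCT1 and MCT4 binds cyclophilins and induces matrix proteases. The gene (ENSG00000172270) lies on the plus strand of chromosome 19 from 571277 to 583493. It had 20930 and 20264 counts in KO libraries 1 and 2, against 21945 and 28114 counts in control libraries 1 and 2. After scaling this was 485 ± 0.336 CPM in KO and 635 ± 22.5 CPM in control cells (SD, n = 2 each). The KO libraries were nearly equal and below both control libraries, with a log2 fold change of −0.39 (SE 0.113). The call of the fit did not hold in 9 of 13 alternatives, among them each fit with 1 library left out, whose log2 fold changes were −0.45 to −0.36.

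The genes around BSG had a median log2 fold change of −0.33. Of 51 tested genes within 1 Mb, 18 were called lower and 2 higher, where 12.1% of all tested genes were lower. The part of this neighbourhood in the value of BSG was not tested. BSG shares 140 of its 3797 exon bases with the antisense gene AC009005.1.

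**Figure D2:**
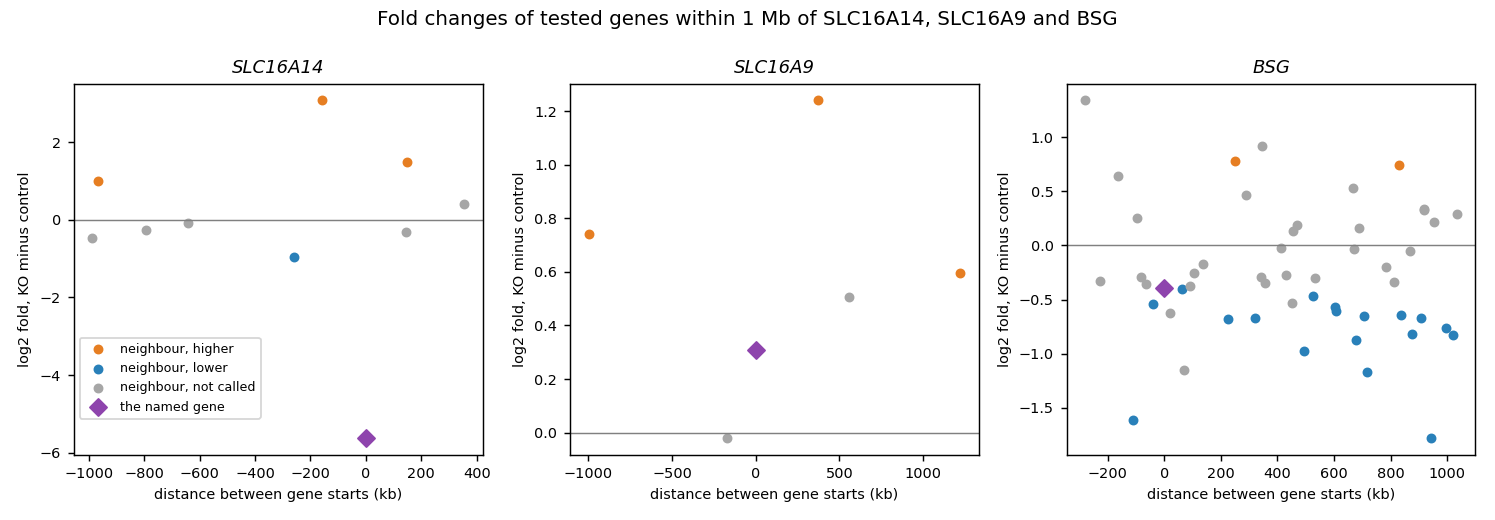
Log2 fold change (FOXP4 KO minus control, vertical axes) of the tested genes within 1 Mb of SLC16A14, SLC16A9 and BSG, against the distance between gene starts in kb, positive downstream of the named gene (diamond). SLC16A14 lies far below all 9 of its neighbours, whereas BSG sits among neighbours with a median of −0.33.

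Levels per length can be compared between genes, and TPM gives them. The KO columns of the TPM table are numbered but were not matched to the replicates, so they stand as a group. BSG led with 709 and 705 TPM in KO and 933 and 997 TPM in control libraries. SLC16A1 followed with 195 and 148 TPM in KO and 145 and 156 TPM in control libraries. The remaining 7 SLC16 genes together had 41.4 and 43.6 TPM in KO and 45.9 and 47.1 TPM in control libraries.

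The order of mean TPM in control cells was BSG, SLC16A1, SLC16A10 (17.2), SLC16A13 (11.7), SLC16A14 (6.38), SLC16A9 (6.08), SLC16A6 (2.21), SLC16A3 (1.504) and SLC16A7 (1.41). In that order SLC16A14 and SLC16A9, and SLC16A3 and SLC16A7, overlapped between libraries, and the other neighbours did not. In KO cells the order below SLC16A1 was SLC16A10 (15.5), SLC16A13 (11.4), SLC16A9 (7.36), SLC16A7 (4.03), SLC16A6 (2.79), SLC16A3 (1.28) and SLC16A14 (0.101), and no neighbours overlapped. SLC16A14 thus stood last in KO cells and between SLC16A13 and SLC16A9 in control cells.

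BSG had 3.64 and 4.76 times the TPM of SLC16A1 in KO libraries and 6.46 and 6.38 times in control libraries. SLC16A1 took 70.9% and 63.9% of the TPM of all 14 SLC16 genes in KO and 63.9% and 62.3% in control libraries. These 14 summed to 253 ± 30.2 TPM in KO and 239 ± 17.3 TPM in control cells (SD, n = 2 each), a difference within the spread between libraries. SLC16A14 gave 0.101 ± 0.032 TPM of this total in KO and 6.38 ± 1.05 TPM in control cells (SD, n = 2 each).

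TPM and counts gave like fold changes for most of the 9 genes and unlike ones for a few. For SLC16A14 the log2 ratio of mean TPM was −5.98, against −5.62 from counts, the widest gap of the 9. The ratio was −0.23 for SLC16A3, against 0.08 from counts, and 0.34 for SLC16A6, against 0.62 from counts. For SLC16A10 it was −0.15 against 0.00. Over all tested genes the median difference between the scales was −0.03. The spread of this difference over genes is not given, so whether these 4 genes stand out was not tested.

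**Figure D3:**
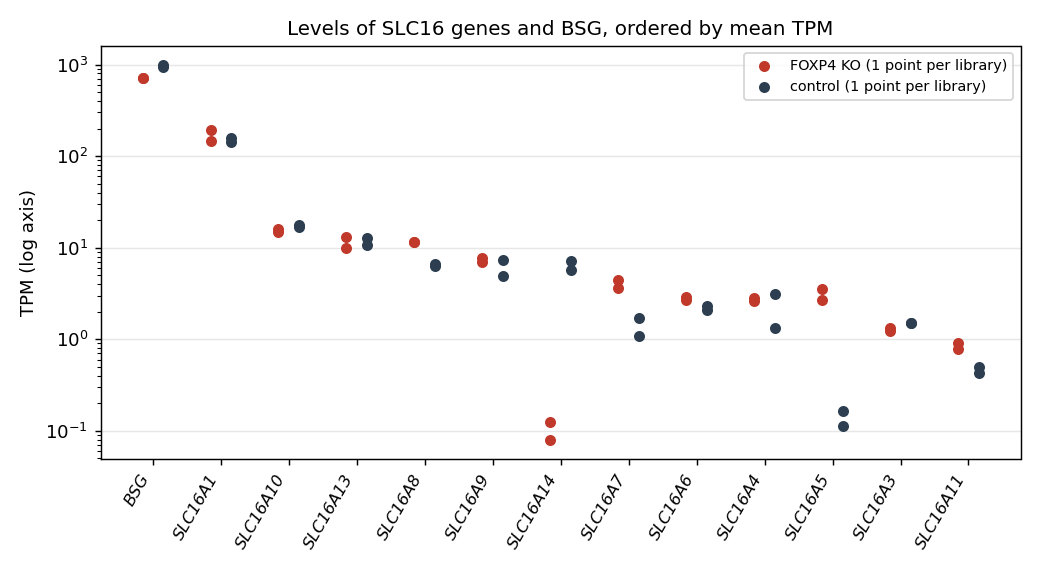
TPM (log axis) of the 9 genes and of 4 other tested SLC16 genes, ordered by mean TPM over the 4 libraries, with 1 point per library and FOXP4 KO left of control. BSG and SLC16A1 lie above 100 TPM in every library, and SLC16A14 and SLC16A5 show the wide gaps between groups.

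The other 6 SLC16 genes were a list of their own, and 5 of them passed the filter. By edgeR 2 of these 5 were higher and 0 lower, and 3 did not pass, and their median log2 fold change was 0.85. SLC16A5 encodes MCT6, a carrier of drugs such as bumetanide, and had 151 and 112 counts in KO libraries 1 and 2, against 5 and 7 counts in control libraries 1 and 2. Its log2 level rose by 4.32 (SE 0.372, edgeR adjusted p = 0.0025), with 5 and 7 counts behind the control level. SLC16A8, the MCT3 of the retinal pigment epithelium, had 456 and 449 counts in KO and 207 and 258 counts in control libraries, and rose by 0.85 (SE 0.176, edgeR adjusted p = 0.019). Without control replicate 1, KO replicate 1 or KO replicate 2, SLC16A8 did not pass (edgeR adjusted p = 0.050 to 0.12), and 1 gene of the list was higher. Around SLC16A8, 15 of 49 tested genes within 1 Mb were higher and 3 lower, with a median of 0.43. The shares over all tested genes were 13.8% higher and 12.1% lower.

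SLC16A11 had a log2 fold change of 0.89 at 31 and 35 counts in KO and 14 and 19 counts in control libraries, and SLC16A4 of 0.24, and neither passed. SLC16A12, a creatine carrier, had 0.150 and 0.070 TPM in KO and 0.073 and 0.062 TPM in control libraries and was not tested.

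**Figure D4:**
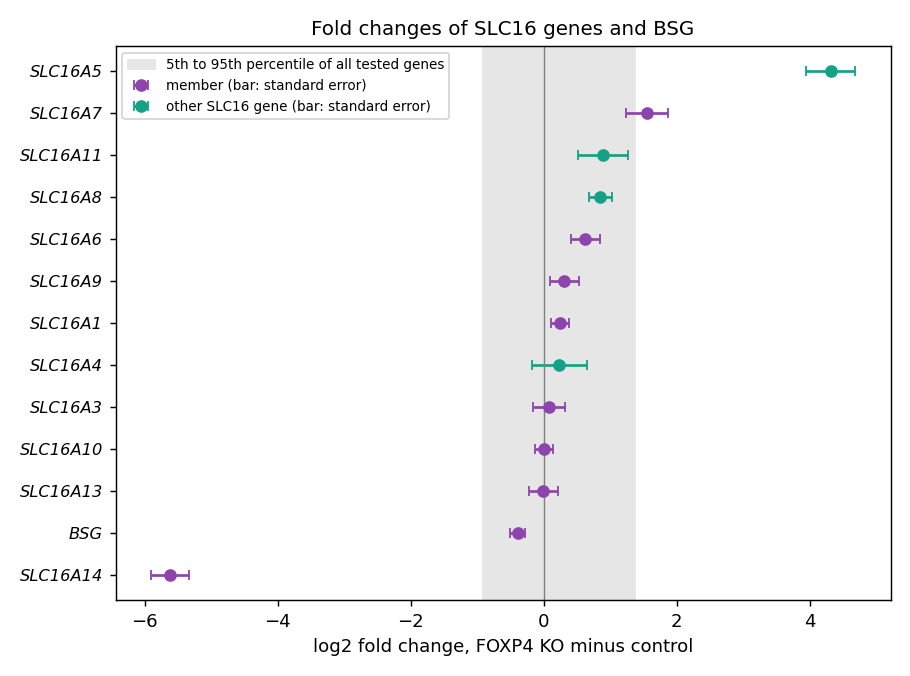
Log2 fold change (FOXP4 KO minus control, horizontal axis) with its SE for the 9 genes and 4 other tested SLC16 genes, over a band from the 5th to the 95th percentile of all tested genes (−0.91 to 1.37). SLC16A14 (−5.62) lies below the band, SLC16A5 (4.32) and SLC16A7 (1.55) above it, and the others inside.

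Genes around the carriers were taken from 5 further lists, written from textbook roles. Like the list of other SLC16 genes, they were drawn up with earlier results of these data known. Their p-values are therefore not those of genes chosen blind. Over the 6 lists together, 82 of 96 genes were tested, 17 were higher and 6 lower, and the median log2 fold change was 0.16, against 0.01 over all tested genes. Without KO replicate 1, 8 were higher and 1 lower, and without KO replicate 2, 9 were higher and 3 lower. Among all tested genes 13.8% were higher and 12.1% lower.

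The next list held partners of the carriers and other monocarboxylate carriers, among them the mitochondrial pyruvate carrier. The test called 0 of 13 tested genes higher and 2 lower and left 11 uncalled, and the median log2 fold change was 0.04. With 13.8% higher and 12.1% lower over all tested genes, nothing is read from these few calls. EMB, the partner of MCT2, had 2848 and 2777 counts in KO and 2200 and 2388 counts in control libraries, at 0.17 on the log2 scale (edgeR adjusted p = 0.30). MPC1 and MPC2, the subunits of the pyruvate carrier, had log2 fold changes of 0.04 and 0.16 (edgeR adjusted p = 0.81 and 0.29). PPIB, cyclophilin B and a ligand of basigin, fell by 0.47 (edgeR adjusted p = 0.037). PPIB did not pass with any single library left out (log2 fold changes of −0.56 to −0.38), nor with upper-quartile scaling (edgeR adjusted p = 0.062). The list had 1 gene lower without control replicate 2 and 0 lower without each of the other 3 libraries. In addition, 1 gene was higher without control replicate 2. SLC4A4, a sodium bicarbonate cotransporter, had a log2 fold change of 0.57 (edgeR adjusted p = 0.12) and passed in none of these fits.

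The lactate dehydrogenases did not pass the test, and genes of pyruvate and acetate use moved in both directions. The test called 5 of 27 tested genes higher and 3 lower and left 19 uncalled, with a median log2 fold change of −0.03. At 18.5% higher and 11.1% lower the list was near all tested genes, with 13.8% and 12.1%, and nothing is read from its counts. LDHA and LDHB, the main lactate dehydrogenase subunits, had log2 fold changes of −0.18 and 0.12 (edgeR adjusted p = 0.33 and 0.58). ACSS1, a mitochondrial acetyl-CoA synthetase, had 2343 and 2301 counts in KO and 552 and 955 counts in control libraries and rose by 1.54 (SE 0.188, edgeR adjusted p = 0.0055).

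Of the 5 subunit genes of the pyruvate dehydrogenase complex in the list, 1 was higher and 1 lower, where 13.8% of all tested genes were higher and 12.1% lower. PDHA1, PDHX and DLD did not pass, with log2 fold changes of 0.08, 0.16 and 0.09 (edgeR adjusted p = 0.59, 0.37 and 0.71). PDHB, of its E1 enzyme, had 158 ± 3.45 CPM in KO and 99.4 ± 0.019 CPM in control cells (SD, n = 2 each) and rose by 0.67 (edgeR adjusted p = 0.0086). DLAT, its E2 enzyme, had 84.2 ± 0.048 CPM in KO and 138.5 ± 2.30 CPM in control cells (SD, n = 2 each) and fell by 0.72 (edgeR adjusted p = 0.0075). PDHB did not pass without KO replicate 1 (adjusted p = 0.054). The other calls were PDK1 and PDK4, kinases that inhibit the complex, with 0.55 and 1.52, the transaminase GPT with 0.82, ME1, a malic enzyme, with −0.74, and PC, pyruvate carboxylase, with −0.74. Without KO replicate 1 the list had 1 gene higher and 1 lower, and without KO replicate 2 it had 2 higher and 1 lower.

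Several genes of ketone body use and of the carnitine shuttle were higher. The test called 5 of 17 tested genes higher and 0 lower and left 12 uncalled, with a median log2 fold change of 0.15. Over all tested genes 13.8% were higher and 12.1% lower, with a median of 0.01. OXCT1, the enzyme that activates acetoacetate in ketone body use, had 4657 and 3678 counts in KO and 532 and 753 counts in control libraries. It rose by 2.59 (SE 0.158, edgeR adjusted p = 0.0012). BDH1, which interconverts the ketone bodies, had 294 and 426 counts in KO and 67 and 34 counts in control libraries, and rose by 2.68 (edgeR adjusted p = 0.010).

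All 3 genes of carnitine palmitoyltransferase 1 were higher in the fit of all 4 libraries. For CPT1A and BDH1, values with 1 library left out are not given here. CPT1C, CPT1B and CPT1A rose by 1.39, 0.90 and 0.68 (edgeR adjusted p = 0.0069, 0.0059 and 0.015), and CPT1C did not pass without KO replicate 1 (adjusted p = 0.053). CPT1B is annotated with read-through transcripts from its neighbour CHKB, so reads may be shared between them. The carnitine uptake carrier SLC22A5 had a log2 fold change of −0.34 and did not pass. Without KO replicate 1 the list had 3 genes higher.

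Among carriers of aromatic amino acids and genes of thyroid hormone handling, 3 of 10 tested were higher and 0 lower, and 7 were not called. Their median log2 fold change was 0.47. With 13.8% higher and 12.1% lower over all tested genes, nothing is read from so few calls. SLC43A1, a carrier of large neutral amino acids, had 3045 and 3372 counts in KO and 569 and 1238 counts in control libraries and rose by 1.76 (SE 0.269, edgeR adjusted p = 0.0086). CRYM, which binds thyroid hormone in the cytosol, had 160 and 141 counts in KO and 48 and 61 counts in control libraries and rose by 1.35 (edgeR adjusted p = 0.013). DIO2, the deiodinase that makes the active hormone, had 38 and 45 counts in KO and 7 and 10 counts in control libraries. Its log2 fold change was 2.17 (edgeR adjusted p = 0.015), and it did not pass on log2(TPM + 1) (limma-trend adjusted p = 0.097). CRYM did not pass without either KO replicate, nor DIO2 without either KO replicate or control replicate 1, so that 1 gene of the list was higher without a KO replicate. Without control replicate 2, 5 were higher, and without KO replicate 2, 1 was lower.

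Of 10 known regulators of SLC16 genes, 2 were higher and 1 lower, and 7 were not called, with a median log2 fold change of 0.29. These counts lie near the shares over all tested genes, 13.8% higher and 12.1% lower, and nothing is read from them. PPARGC1A, a coactivator of mitochondrial genes that raises MCT1 in muscle, had 524 and 630 counts in KO and 98 and 176 counts in control libraries and rose by 1.99 (SE 0.256, edgeR adjusted p = 0.0061). MYC had 559 and 865 counts in KO and 292 and 321 counts in control libraries and rose by 1.10 (SE 0.255, edgeR adjusted p = 0.026). MYC did not pass without KO replicate 2 (0.73) or without control replicate 1 (1.15) or 2 (1.02). With all 4 libraries MYC did not pass on log2(TPM + 1) or log2(TPM + 0.1) either (limma-trend adjusted p = 0.059 and 0.054). EPAS1, the hypoxia factor HIF-2α, had 1211 and 1340 counts in KO and 2258 and 2100 counts in control libraries and fell by 0.90 (SE 0.168, edgeR adjusted p = 0.014), but did not pass without KO replicate 1 (edgeR adjusted p = 0.076). Without control replicate 2, 1 regulator was higher and 2 were lower.

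**Figure D5:**
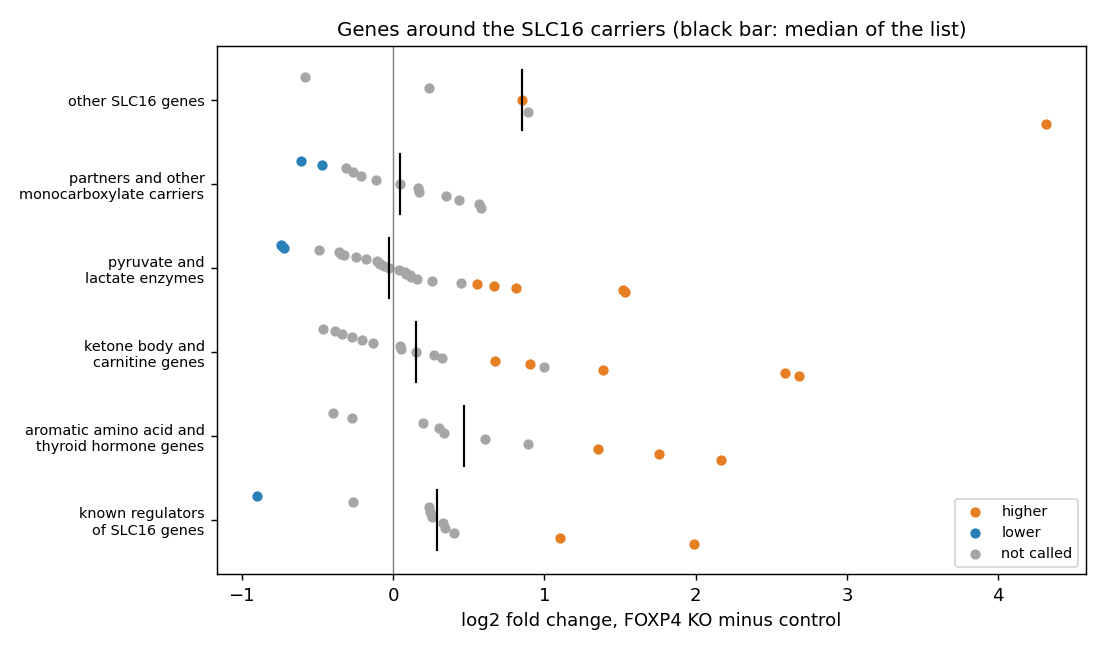
Log2 fold change (FOXP4 KO minus control, horizontal axis) of each tested gene of the 6 lists, colored by the call of edgeR's quasi-likelihood test at an adjusted p under 0.05, with a black bar at each list's median. SLC16A5 (4.32) is the rightmost point, and the lists' medians run from −0.03 to 0.85.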

How the data were processed

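Members and lists were chosen with earlier results of these data known. The authors deposited raw counts per gene symbol and, in a second table, TPM per gene. Which aligner and counter made them is not given in the sources used here. In the submitters' notes GRCm38 and mm10, both mouse builds, are listed, although the gene names are human. Positions are those of GENCODE v29 on GRCh38, found through the Ensembl identifiers of the TPM table. Groups follow the sample titles.

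Counts were tested in R 4.3.3 with edgeR 4.0.16 (filterByExpr, TMM, quasi-likelihood test, group as the only term). Benjamini-Hochberg adjustment ran over 14620 genes, with a threshold of 0.05. Standard errors (SE) are |log2 fold| over the root of F. CPM were computed with the TMM factors. The count table lists 0 genes with a count of 0. The fit was checked on simulated counts. With 2 libraries against 2 the smallest two-sided exact permutation p is 0.33, so none is given.

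Alternatives were DESeq2 1.42.0, limma-voom (limma 3.58.1), other scalings and filters, leaving out each library, the replicate number as a block, and limma-trend with log2(TPM + 1) or with log2(TPM + 0.1). Named genes are the 9 chosen genes, FOXP4, the 3 of lowest p in each list with LDHA, LDHB, MPC1, MPC2 and EMB, and the 5 nearest to SLC16A14. VIM, CDH2, NEFM, HBA1, HBB, WFDC2, FOLR1, KRT7, SP110, FBXO36, SP140L, SLC16A11, SLC16A4, SLC16A12, PDK1, PDK4, GPT, ME1, PC, PDHA1, PDHX, DLD, BDH1, CPT1A and SLC22A5 were added after their values were seen. Some list genes that this rule names are counted but not reported here by name. Protein sequences were not used here.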

Additional observations from a re-analysis of the deposited data

How the results depend on the processing

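With 1 library left out, the log2 fold change was −5.96 to −5.34 for SLC16A14, 1.22 to 1.97 for SLC16A7 and −0.45 to −0.36 for BSG. The 9 genes were chosen on these values, so counts of calls among them describe the settings and are no support. Of the 9 genes, 1 was called lower with upper-quartile scaling, with no filter, on log2(TPM + 1), on log2(TPM + 0.1) and with the replicate number as a block. With 1 library left out, 0 to 1 were called higher and 1 lower. On log2(TPM + 1) the log2 fold change of SLC16A14 was −2.74, as the pseudocount sets its KO level. Of 117 alternative values for the 9 genes, 12 had the other sign, all for SLC16A3, SLC16A10 and SLC16A13.

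With 1 library left out, 8 to 20 list genes were higher and 1 to 7 lower, and 639 to 2013 of all genes higher and 467 to 1614 lower. Such fits hold a lone library in 1 group, assumed to vary like the others. Upper-quartile scaling gave 2383 genes higher and 1368 lower, against 2013 and 1765. The log2 fold change of LDHB was −0.016 without control replicate 2 and at most 0.24 with 1 library left out. That of MPC1 was −0.062 without control replicate 1 and at most 0.12, and that of MPC2 was −0.0099 on log2(TPM + 1) and −0.010 on log2(TPM + 0.1). Within 500 kb the neighbours' median was 0.32 for SLC16A6, −0.016 for SLC16A10 and 0.40 for SLC16A14, from 8, 8 and 5 genes. The cause of these shifts was not tested. FOXP4 fell in all 13 alternatives.

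Same-numbered libraries did not deviate together (correlation −0.0026 across genes), and the main fit did not pair them. This value cannot show whether same-numbered samples were handled together, which the labels do not give. With the replicate block 19 list genes were higher and 7 lower, and 1981 of all genes were higher and 1637 lower. Few counts limit SLC16A14 in KO cells and SLC16A5 and SLC16A7 in control cells.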
